A study of Mus musculus with 27 samples.

Results

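The comparison described here is that of bone marrow-derived macrophages (BMDM) stimulated once with Pam3CSK4 (acute) and BMDM that had received no ligand (naïve). Its differences rest on 5 of the 27 arrays of the study, naïve replicates 1 to 3 and Pam3CSK4 acute replicates 1 and 3. These are all the arrays of these groups with deposited normalized values. The array of Pam3CSK4 acute replicate 2 has none and was left out of every comparison. Of 55681 non-control probes, 27841 were tested, those that the scanner software marked as well above the local background on 2 or more arrays of one group. They stand for 18908 genes, each represented by its probe with the highest mean.

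All cultures were differentiated from the bone marrow of female C57BL/6 mice aged 6 to 8 weeks for 7 days in medium conditioned by L929 cells, the source of the macrophage growth factor M-CSF. No group carried a genetic alteration. Acute cells received Pam3CSK4 at 100 ng/ml for 4 h, and the naïve cells were the untreated controls shared by all ligands of the study. The methods describe a replicate at one place as a separate mouse and at another as a pool of animals, made separately for each replicate. The p-values of the fit of these cultures alone measure the spread between them together with that of their slides and arrays. Most adjusted p-values against naïve cells given below come from a joint fit of 25 arrays in 9 groups. The spread in that fit is pooled over all its groups, among them acute LPS on other slides and cells re-stimulated after a pretreatment. One 1-colour array was hybridised per culture, and 3 and 2 arrays limit the precision. The study asks how macrophages answer a first and a second exposure to a Toll-like receptor (TLR) ligand, and the comparison of naïve with acute cells gives the first answer to the TLR2 ligand.

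Pam3CSK4 is a synthetic lipopeptide built like the lipid end of bacterial lipoproteins. It is bound at the cell surface by TLR2 paired with TLR1, with CD14 as an accessory receptor, and TLR2 signals through the adapters TIRAP and MyD88, the IRAK kinases and TRAF6 to NF-κB and the MAP kinases. In macrophages this pathway is known for the rapid transcription of cytokines, chemokines and feedback inhibitors, and, unlike TLR3, which uses the adapter TRIF, for little type I interferon.

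The largest differences were those of chemokines that attract neutrophils, of the prostaglandin-forming enzyme Ptgs2 and of the cytokine Il6. Cxcl3 had log2 values of 2.90, 4.10 and 5.76 in naïve replicates 1, 2 and 3 and of 15.75 and 10.70 in Pam3CSK4 replicates 1 and 3 (values of 5 arrays are given in this order throughout). Ptgs2 had 3.11, 3.10, 4.86, 13.93 and 10.83, and Cxcl1 4.22, 5.73, 9.10, 16.51 and 13.38. For each of these genes both stimulated arrays lay above all 3 naïve arrays, with replicate 1 above replicate 3. Groups without overlap were a condition of the naming rule given with the processing. The 250 bases before the transcription start of the 4 named genes with the largest mean differences are shown because NF-κB is the factor at which the TLR2 pathway ends. They are from RefSeq (GRCm38.p6, plus strand), at chr5:90785851-90786100 for Cxcl3, chr1:150099781-150100030 for Ptgs2, chr5:90890995-90891244 for Cxcl1 and chr5:30012864-30013113 for Il6. Capitals mark GGGA and CC with any 4 bases between them (NF-κB) and TGANTCA (AP-1), searched on both strands.
Cxcl3: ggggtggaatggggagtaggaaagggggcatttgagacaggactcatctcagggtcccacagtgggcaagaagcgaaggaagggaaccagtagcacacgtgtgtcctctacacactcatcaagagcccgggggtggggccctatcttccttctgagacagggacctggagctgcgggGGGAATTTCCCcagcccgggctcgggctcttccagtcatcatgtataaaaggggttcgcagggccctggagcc
Ptgs2: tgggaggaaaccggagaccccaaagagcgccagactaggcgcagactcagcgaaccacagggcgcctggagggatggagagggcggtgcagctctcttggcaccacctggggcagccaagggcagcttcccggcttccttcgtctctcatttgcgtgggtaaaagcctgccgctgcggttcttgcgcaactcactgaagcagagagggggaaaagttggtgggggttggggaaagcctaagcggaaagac
Cxcl1: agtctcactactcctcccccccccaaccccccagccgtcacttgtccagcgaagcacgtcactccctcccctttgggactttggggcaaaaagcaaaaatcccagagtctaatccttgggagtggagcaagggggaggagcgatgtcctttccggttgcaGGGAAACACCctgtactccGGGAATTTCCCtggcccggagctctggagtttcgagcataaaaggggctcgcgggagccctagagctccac
Il6: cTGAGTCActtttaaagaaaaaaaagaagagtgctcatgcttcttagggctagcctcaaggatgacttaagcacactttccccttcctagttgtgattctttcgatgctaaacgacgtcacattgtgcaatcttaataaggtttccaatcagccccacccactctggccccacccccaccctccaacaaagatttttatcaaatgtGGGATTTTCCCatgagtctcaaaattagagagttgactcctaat
The NF-κB letters stood once before Cxcl3, 73 to 63 bases before the start when the matches of both strands are joined, at 2 places before Cxcl1 and once before Il6, which also held the AP-1 letters at its upstream end. None of the letters searched was in the window of Ptgs2. No 2 different motifs overlapped. Of 27025 genes with a promoter in the table, 19.7% held the NF-κB letters in this window and 7.82% the AP-1 letters. A match is a description and no binding site. Of 10963 tested genes with a promoter in the table, 25.2% held the NF-κB letters and 5.91% the AP-1 letters. Only 43 of the 54 genes named below with higher values have a promoter there. The NF-κB letters stood before 16 of these (37.2%) and before 2 of 12 named genes with lower values (16.7%). These genes were picked by their differences, and the shares were not tested.

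Some arrays stood apart from the rest of their group. Naïve replicate 3 had 74.9% of its spots well above background, against 46.7% to 50.2% on the other naïve arrays, and its values correlated better with Pam3CSK4 replicate 3 (r = 0.980 over 27841 probes) than with naïve replicates 1 and 2 (r = 0.958 and 0.960). For all groups but acute LPS the replicate number is also the slide, which means that naïve and stimulated cells of replicate 1 lay on 1 slide and those of replicate 3 on another. The defining macrophage markers were present throughout, with 10 of 10 (among them Csf1r, Emr1, Cd68 and Lyz2) well above background on all 5 arrays and a median log2 value of 14.6 to 15.3 per array. In naïve and Pam3CSK4 cells the signal of neutrophil markers differed with the slide, except for Elane. Their median was 10.9 and 11.4 in naïve replicates 1 and 2 and 11.8 in Pam3CSK4 replicate 1, against 4.57 and 5.12 in replicate 3 of the naïve and the stimulated cells. S100a9, a calcium-binding protein of neutrophils, had 15.63, 16.20, 4.57, 16.90 and 7.81. Over all groups on the 3 slides the values on the slide of replicate 3 lay below all others for 4 of the 9 markers (Ly6g, S100a9, Ngp and Ltf) and overlapped them for the rest, S100a8 reaching 15.66 there. In RNA of a whole culture fewer cells of a type and less RNA per cell cannot be told apart. The T cell, B cell, natural killer cell, eosinophil, fibroblast and erythroid marker lists had medians of 2.16 to 4.26 on every array. The dendritic cell list had medians of 3.94, 4.70, 3.11, 5.06 and 3.46 and the mast cell and basophil list of 5.75, 5.58, 2.17, 5.42 and 2.86, both lower on the arrays of replicate 3, as was the eosinophil marker Prg2 at 7.47, 7.90, 2.61, 8.66 and 2.08. The part of these transcripts and of naïve replicate 3 in the differences below was not tested, and the differences within the slides of replicates 1 and 3 and without naïve replicate 3 are given beside them.

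**Figure D1:**
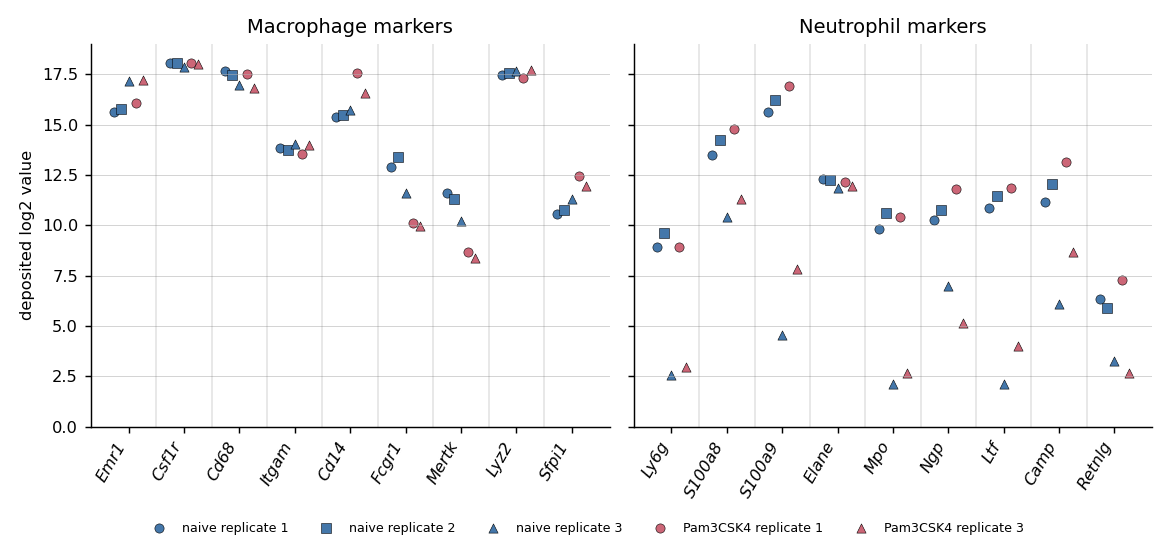
Deposited log2 values (y axis) of 9 macrophage and 9 neutrophil markers (x axis), 1 point per array, with circles, squares and triangles for replicates 1, 2 and 3, naïve cells in blue and Pam3CSK4 acute cells in red. Csf1r, Cd68, Itgam and Lyz2 lay at similar heights on all 5 arrays, Fcgr1 and Mertk were lower and Cd14 higher in stimulated cells, and most neutrophil markers were lower on both arrays of replicate 3, as S100a9 was with 4.57 and 7.81.

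In the fit of the 5 arrays alone (limma, adjusted p under 0.05 and at least 1.5-fold) 0 of 27841 probes were called. Its smallest adjusted p was 0.288, while unadjusted p-values under 0.05 were found for 3458 probes (12.4%). With the spread estimated from all 25 arrays of the 9 groups, 905 probes (3.25%) were called higher and 826 (2.97%) lower in acute cells. These were 584 of 18908 genes higher (3.09%) and 662 lower (3.5%). "Called" below refers to this 25-array fit, the adjusted p-values below are its p-values, and the differences are means of the 2 stimulated minus the 3 naïve arrays on the log2 scale with the standard error (SE) of the 5-array fit. Without naïve replicate 3 the same joint fit of the 24 other arrays, added after seeing the data, called 750 of 18908 genes higher (3.97%) and 1140 lower (6.03%), and the counts "without naïve replicate 3" below are from it. A fit of only the 4 remaining arrays called 191 of 17823 genes higher (1.07%) and 231 lower (1.3%), but 0 probes when run on the probes of the 5-array fit (smallest adjusted p = 0.0502). With normexp background correction of the scanner signals 19 of the 70 named genes had log2 differences more than 1.5 times smaller. These are given below in brackets as "normexp". This alternative added a constant of 50 to every corrected signal, which by itself shrinks the log2 differences of weak signals. The part of the constant and that of the background method were not separated. A smaller loss on the log2 scale can still be large in fold, so genes without brackets are not all stable. With normexp, Cxcl3 went from 8.97 to 6.66, Ptgs2 from 8.69 to 6.06 and Cxcl1 from 8.60 to 7.44. The stimulated and naïve arrays did not overlap for 2860 genes that were higher (15.1%) and 3420 that were lower (18.1%). The median difference over all genes was -0.02.

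Differences were larger within the slide of replicate 1 than within that of replicate 3. Across the 18908 genes the 2 differences correlated with r = 0.456, a description across genes that share both arrays of a slide. Of the 584 genes called higher, 507 had the larger difference within the slide of replicate 1, where their median was 1.92, against 0.98 within the slide of replicate 3. Tnf, for example, differed by 7.97 within the first slide and by 2.43 within the other, with naïve replicate 3 at 13.44 against 9.0 and 9.53 in the other naïve cultures. Adm was one of the genes with a difference of like size in both (4.34 and 4.71).

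**Figure D2:**
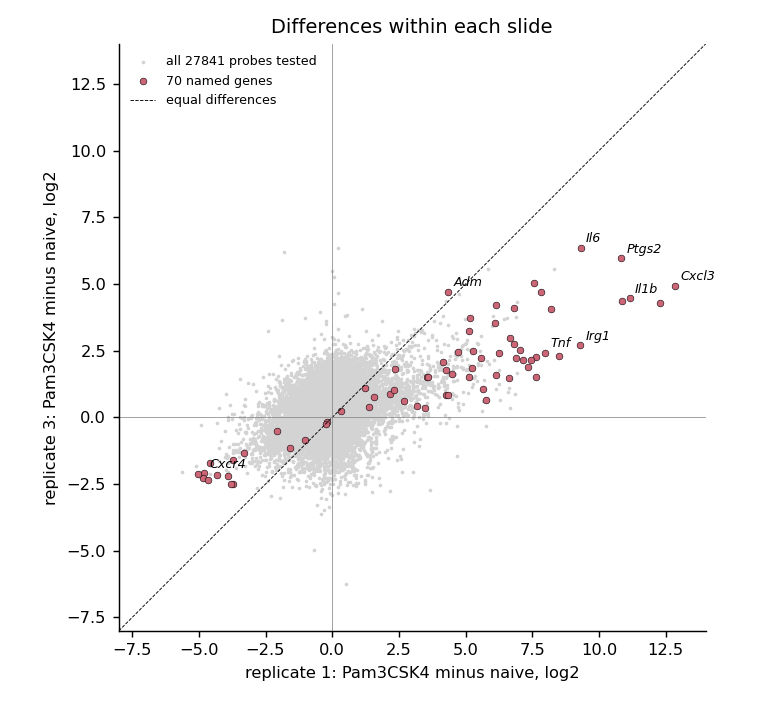
Log2 difference of Pam3CSK4 acute minus naïve within the slide of replicate 1 (x axis) and of replicate 3 (y axis), with 27841 tested probes in grey, 70 named genes in red and the line of equal differences dashed. Cxcl3, Il1b and Tnf lie far below the line, with differences of 12.85, 11.15 and 7.97 for replicate 1 against 4.94, 4.47 and 2.43 for replicate 3, and Adm lies near it.

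Of the receptor and adapter genes of the pathway itself, the receptor Tlr2, its partner Tlr6 and the accessory receptor Cd14 were called higher. Tlr2 had 11.66, 12.17 and 13.32 in naïve cells and 15.92 and 14.15 in stimulated cells. The stimulated arrays were above all naïve arrays, by a mean of 2.65 ± 0.73 (SE; 6.28-fold, adjusted p = 0.00501), and by 4.25 and 0.83 within the slides of replicates 1 and 3. Cd14, at 15.39, 15.49 and 15.71 already among the strongest signals in naïve cells, had 17.56 and 16.59 (difference 1.54 ± 0.35, adjusted p = 0.00356). Tlr6, which pairs with TLR2 for diacylated lipopeptides, had 9.76, 10.03, 10.14, 11.32 and 10.92 (1.14 ± 0.25, adjusted p = 0.00111).

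Tlr1, the partner of TLR2 for Pam3CSK4, was not called. Its values of 9.58, 10.34, 12.37, 12.28 and 12.98 overlapped, since naïve replicate 3 lay above the stimulated replicate 1 (difference 1.86 ± 0.88, adjusted p = 0.0743). Irak3, an IRAK without kinase activity that dampens the pathway, had 9.49, 9.88, 12.95, 12.96 and 13.31, with naïve replicate 3 at the level of the stimulated cells. It was not called with naïve replicate 3 (2.36 ± 1.11, adjusted p = 0.0764) and was called higher without it (adjusted p = 0.000984), as were Tlr1 and Myd88 (adjusted p = 0.00182 and 0.0117). The adapter Myd88 had 11.50, 11.71, 12.35, 12.88 and 12.73, a difference of 0.95 ± 0.32 that missed the threshold (adjusted p = 0.0532). Over the list of 22 receptors, co-receptors and adapters, 4 were called higher and 1 lower, and 6 and 0 without naïve replicate 3. The median difference of the list was 0.41. The member called lower was Tab1, a subunit of the TAK1 kinase complex, at 12.11, 11.72, 11.77, 10.65 and 11.32. Tirap, Irak1, Irak4, Traf6, Map3k7, Chuk, Ikbkb and Ikbkg, which carry the signal to NF-κB, were not called and differed by -0.40 to 0.57.

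**Figure D3:**
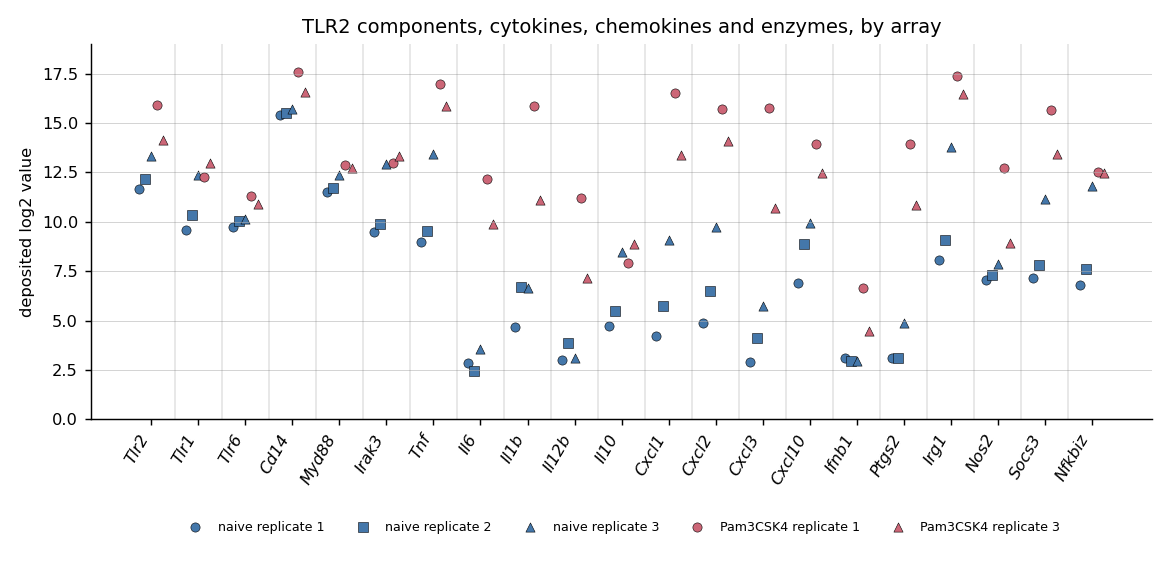
Deposited log2 values (y axis) of 21 genes (x axis), 1 point per array, with circles, squares and triangles for replicates 1, 2 and 3, naïve cells in blue and Pam3CSK4 acute cells in red. The groups are widest apart for Il6, Ptgs2 and the Cxcl chemokines, and for Tlr1, Irak3, Il10 and Nfkbiz naïve replicate 3 (blue triangle) lies close to the stimulated arrays.

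Of 21 cytokine and growth factor genes, 8 were called higher and 0 lower, and 9 and 0 without naïve replicate 3. The median difference of the list was 1.89, with 2.83 and 1.01 within the slides of replicates 1 and 3. Il6, a cytokine of the acute phase response, had 2.84, 2.47, 3.55, 12.15 and 9.91, and was well above background on 1 of 3 naïve arrays and on both stimulated arrays. Its difference of 8.08 ± 0.74 (270-fold, adjusted p = 8.87e-05; normexp 4.98) was large on both slides, 9.32 and 6.36. Il1b, the precursor of interleukin 1β, had 4.70, 6.71, 6.64, 15.85 and 11.11 (7.46 ± 1.53, 176-fold, adjusted p = 0.000407). Il12b, the p40 subunit of interleukins 12 and 23, had 3.02, 3.88, 3.11, 11.23 and 7.16 (5.86 ± 1.22, adjusted p = 0.00144; normexp 3.24). Both were several log2 units higher in stimulated replicate 1 than in replicate 3, and without Pam3CSK4 replicate 1 the difference of Il12b was 3.83.

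Tnf, an early cytokine, had 9.0, 9.53, 13.44, 16.97 and 15.87, and even the high naïve replicate 3 stayed below the stimulated cells (5.76 ± 1.45, 54.3-fold, adjusted p = 0.00216). The anti-inflammatory Il10 was not called. Its values of 4.73, 5.49, 8.45, 7.92 and 8.90 overlapped through naïve replicate 3 (2.19 ± 1.18, adjusted p = 0.35; normexp 1.30), and it was not called without that array either (adjusted p = 0.0976). The remaining members called were Edn1, Il1a, Tnfsf9 and Tnfsf15, between 3.04 and 4.92, while Vegfa, Tgfb1, Osm and Il1rn differed by -0.09 to 0.17. Edn1, Il1a, Tnfsf9 and Tnfsf15, like the other genes outside the naming rule given with the processing, were chosen after their values were seen.

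Of 18 chemokine genes 10 were called higher and 0 lower, and 9 and 0 without naïve replicate 3, with a median difference of 2.44 (1.35 with normexp). The neutrophil attractants Cxcl3, Cxcl1 and Cxcl2 led the list. Cxcl3 differed by 8.97 ± 1.69 (502-fold, adjusted p = 0.000556) and Cxcl1 by 8.60 ± 1.71 (387-fold, adjusted p = 0.000563), both with their sequences and values above. Cxcl2 had 4.85, 6.49, 9.73, 15.73 and 14.10 (7.89 ± 1.52, 238-fold, adjusted p = 0.000408). In all 3 genes naïve replicate 3 was the highest naïve array. That it lay below both stimulated arrays was a condition for naming them.

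Cxcl10, an attractant of T cells that also answers to interferons, had 6.89, 8.89, 9.96, 13.94 and 12.47 (4.62 ± 1.01, adjusted p = 0.00265). Among the monocyte and T cell attractants of the CC family, Ccl3, Ccl4, Ccl5 and Ccl12 were called higher with differences of 2.47 to 3.89. Ccl2, at 10.61, 12.34, 11.10, 12.74 and 11.68, and Ccl7 overlapped between the groups. Cxcl16 and Cx3cl1, which exist in membrane-bound forms, were also called higher, by 1.10 and 2.41.

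NF-κB subunits and their inhibitors had the largest share of members called. Of 29 genes 18 were called higher and 0 lower, and 19 and 1 (Cyld) without naïve replicate 3. The groups did not overlap for 23 of them with stimulated arrays higher, against 15.1% of all genes. Stimulated arrays were lower without overlap for Cyld, a deubiquitinase, against 18.1% of all genes. Another Cyld probe differed in the opposite direction. The median difference was 1.88. Socs3, an inhibitor of cytokine receptor signalling, had 7.14, 7.82, 11.15, 15.64 and 13.45 (5.84 ± 1.41, adjusted p = 0.00142). Nfkbiz, a nuclear IκB protein needed for part of the secondary genes, had 6.78, 7.63, 11.81, 12.53 and 12.46 (3.75 ± 1.57, adjusted p = 0.0299), and here naïve replicate 3 reached within 1 log2 unit of the stimulated cells. Traf1, an adapter of TNF receptors, had 9.32, 10.18, 10.07, 14.58 and 12.57 (3.72 ± 0.67, adjusted p = 0.00137). The subunit genes Nfkb1 and Nfkb2 (2.25 ± 0.40 and 2.67 ± 0.48) and the inhibitors Nfkbia, Nfkbib, Nfkbie and Tnfaip3 (2.09 to 2.95) were called higher as well. The subunit Rela differed less, by 0.95 ± 0.31 (adjusted p = 0.0499). Relb was called higher by 2.01 on its brightest probe, and its probes disagreed in sign.

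The immediate early genes and MAP kinase phosphatases were split in direction. Of 35 genes 9 were called higher and 3 lower, and 9 and 3 without naïve replicate 3, with a median difference of 0.65 (0.38 without Pam3CSK4 replicate 1). Maff, a small MAF transcription factor, had nearly equal values in naïve cells (5.73, 5.73 and 5.72) and 10.90 and 9.45 in stimulated cells. Its difference of 4.45 ± 0.46 (adjusted p = 6.96e-06) was 5.17 and 3.73 within the slides of replicates 1 and 3. Dusp2, a nuclear MAP kinase phosphatase, had 8.80, 8.65, 9.62, 13.29 and 11.26 (3.25 ± 0.69, adjusted p = 0.00812). Dusp6, the cytoplasmic phosphatase of ERK, went the other way with 11.72, 11.46, 10.44, 8.00 and 8.85 (-2.78 ± 0.49, adjusted p = 0.00458). Fos (-2.19) and Rgs1, a regulator of G protein signalling (-1.96), were called lower too, while Fosl1, Gadd45b, Ier3 and Dusp16 were called higher by 2.12 to 2.49.

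Of 42 interferon genes 2 were called higher and 0 lower, against 3.09% and 3.5% of all genes. Without naïve replicate 3 these were 2 higher and 3 lower (Oas3, Oasl2 and Stat2), against 3.97% and 6.03% of all genes. The groups did not overlap for 5 members that were higher and 8 that were lower, near the 15.1% and 18.1% of all genes. The median difference was -0.22, with -0.02 and -0.37 within the slides, 0.04 without Pam3CSK4 replicate 3 and -0.57 without Pam3CSK4 replicate 1. The 2 called were the guanylate-binding GTPases Gbp5, at 6.61, 7.31, 7.49, 13.42 and 10.23 (4.69 ± 0.98, adjusted p = 0.00138, 3.09 without Pam3CSK4 replicate 1), and Gbp2, at 9.11, 9.21, 11.06, 13.44 and 11.88 (2.87 ± 0.80, adjusted p = 0.0349). Ifnb1, interferon β, had 3.13, 2.95, 2.93, 6.67 and 4.45. It was above all naïve arrays on both stimulated arrays but was not called (2.56 ± 0.67, adjusted p = 0.115; normexp 0.79). Among the antiviral genes Ifit1, Isg15, Mx1, Rsad2 and Irf7 the groups overlapped, with differences of -1.01 to 0.58.

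Metabolic genes of activated macrophages were called higher in part. Of 27 genes of arginine, nitric oxide, itaconate and prostaglandin metabolism 7 were called higher and 0 lower, and 7 and 1 (Tbxas1) without naïve replicate 3, with a median difference of 0.85. Ptgs2, cyclooxygenase 2, differed by 8.69 ± 1.08 (413-fold, adjusted p = 4.54e-06), and by 10.82 and 5.97 within the slides. Irg1, which makes itaconate, had 8.09, 9.08, 13.77, 17.40 and 16.47 (6.62 ± 1.78, adjusted p = 0.00046), with naïve replicate 3 closer to the stimulated than to the other naïve cells. Nos2, the inducible nitric oxide synthase, had 7.05, 7.28, 7.88, 12.72 and 8.92 (3.42 ± 1.14, adjusted p = 0.028), and its difference was 5.67 within the slide of replicate 1 against 1.05 within that of replicate 3 (1.52 without Pam3CSK4 replicate 1 and 5.32 without Pam3CSK4 replicate 3). Slc7a11, the cystine transporter, had 6.97, 6.12, 6.95, 11.69 and 9.38 (3.86 ± 0.75, adjusted p = 0.00265). Gch1, Sod2 and Txnrd1 were called higher by 1.67 to 2.50. The genes of leukotriene synthesis Alox5, Alox5ap and Ltc4s were not called and differed by -0.79 to -0.55.

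In the list of glycolysis and the HIF-1 response 5 of 24 genes were called higher and 0 lower, and 5 and 0 without naïve replicate 3, with a median difference of 0.35. Adm, adrenomedullin, had 3.94, 4.47, 4.06, 8.28 and 8.77 (4.37 ± 0.28, adjusted p = 0.000347; normexp 2.35). Slc2a1, the glucose transporter GLUT1, had 11.78, 11.45, 12.01, 14.11 and 13.05 (1.83 ± 0.39, adjusted p = 0.003). The prolyl hydroxylase Egln3 had 6.14, 6.34, 5.53, 8.49 and 7.34 and was not called (1.91 ± 0.45, adjusted p = 0.155; normexp 1.23). Hif1a, Ero1l and Pfkl were called higher by 1.11 to 1.5, while the glycolytic enzymes Gpi1, Aldoa, Tpi1, Gapdh, Pgk1, Pgam1, Eno1 and Pkm2 differed by -0.08 to 0.31 and were not called.

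Cholesterol genes were mostly not called. Of 28 genes 2 were called higher and 0 lower, and 4 and 1 (Npc1) without naïve replicate 3. The median difference was 0.41, with 0.06 without Pam3CSK4 replicate 3, 0.66 without Pam3CSK4 replicate 1, 0.15 without naïve replicate 2 and 0.62 without naïve replicate 3. Ch25h, which makes 25-hydroxycholesterol, had 5.75, 4.93, 7.82, 11.00 and 9.69 (4.18 ± 0.96, adjusted p = 0.00825). The efflux transporter Abcg1 had 14.17, 14.24, 13.68, 13.13 and 12.83 and was not called (-1.04 ± 0.27, adjusted p = 0.181).

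**Figure D4:**
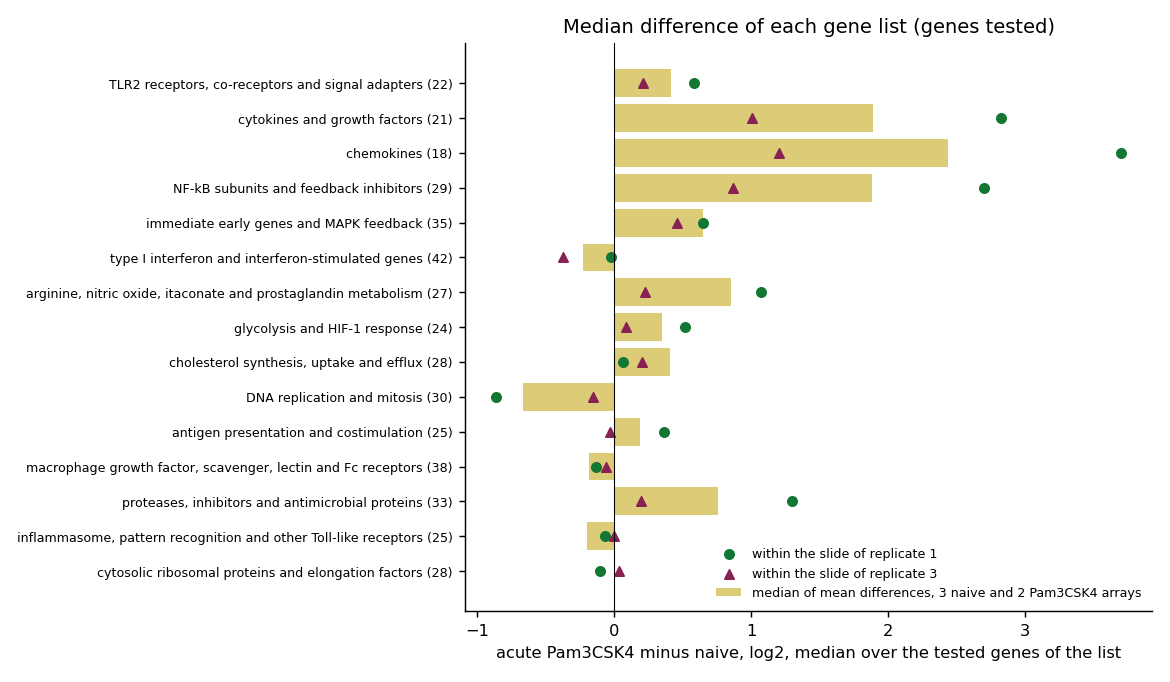
Median log2 difference of Pam3CSK4 acute minus naïve (x axis) for the tested members of 15 gene lists (y axis, number tested in brackets). Bars give the median of the mean differences over 5 arrays and points the medians within the slides of replicates 1 and 3, which are farthest apart for chemokines (3.71 and 1.21) and cytokines (2.83 and 1.01).

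DNA replication and mitosis genes were the list with the most members called lower. Of 30 genes 6 were called lower and 0 higher, and 7 and 0 without naïve replicate 3, with a median difference of -0.67 that was -0.86 within the slide of replicate 1 and -0.16 within that of replicate 3. E2f2, a transcription factor of S phase entry, had 11.63, 11.62, 10.13, 8.32 and 8.79 (-2.57 ± 0.55, adjusted p = 0.0296). Ccnd1, cyclin D1, had 12.06, 12.57, 12.48, 10.48 and 11.32 and was not called (-1.47 ± 0.34, adjusted p = 0.232), nor was the replication licensing factor Cdc6 (5.85, 6.29, 5.42, 3.77 and 4.93, adjusted p = 0.283, difference -1.5, normexp -0.58). The other members called were E2f1 and the replicative helicase subunits Mcm2, Mcm4, Mcm6 and Mcm7, between -1.39 and -0.67. Genes of mitosis, among them Ccnb1, Cdk1, Top2a and Mki67, overlapped between the groups.

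Of 25 genes of antigen presentation and costimulation 4 were called higher and 0 lower, and 4 and 0 without naïve replicate 3. The median difference of 0.19 rested on single arrays, with -0.26 without Pam3CSK4 replicate 1, 0.68 without Pam3CSK4 replicate 3 and 0.03 without naïve replicate 3. Cd69, a lectin of activated leukocytes, had 4.04, 4.70, 7.92, 11.67 and 10.18 (5.37 ± 1.29, adjusted p = 0.00186). Cd40, the receptor for CD40 ligand, had 6.10, 6.91, 8.65, 13.56 and 10.81 (4.97 ± 1.11, adjusted p = 0.00142). Icam1, the adhesion partner of integrins, had 8.03, 8.55, 10.54, 13.17 and 12.04 (3.57 ± 0.85, adjusted p = 0.00103). Icosl was the other member called (3.10). The class II genes H2-Aa, H2-Ab1, H2-Eb1 and Cd74 differed by -0.18 to 0.34, with overlapping groups.

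Surface receptors of macrophages differed in both directions. Of 38 genes 3 were called higher and 3 lower, and 6 and 3 without naïve replicate 3. The median difference was -0.18, with -0.49 without Pam3CSK4 replicate 1, 0.09 without Pam3CSK4 replicate 3 and -0.42 without naïve replicate 3. Cxcr4, the receptor for CXCL12, had 11.77, 11.69, 9.14, 6.97 and 7.05 (-3.86 ± 0.89, adjusted p = 0.0208). The Fc receptor Fcgr1 had 12.90, 13.36, 11.59, 10.11 and 9.94 (-2.59 ± 0.57, adjusted p = 0.0021), and Mertk, a receptor for apoptotic cells, 11.58, 11.30, 10.21, 8.67 and 8.38 (-2.50 ± 0.47, adjusted p = 0.00176). In all 3 genes the groups did not overlap, which was a condition for naming Cxcr4, and naïve replicate 3 was the lowest naïve array. Fcgr1 and Mertk are also in the list of defining macrophage markers, while Csf1r (0.03) and Lyz2 (-0.03) differed little.

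Clec4e, the lectin Mincle, had 11.02, 11.65, 14.39, 17.16 and 15.97 and was called higher (4.21 ± 1.11, adjusted p = 0.00276). Clec5a had 2.79, 3.34, 2.69, 7.05 and 4.48 and was not (2.83 ± 0.79, adjusted p = 0.0754; normexp 0.90). The scavenger receptor Marco and the formyl peptide receptor Fpr1 are the clearest cases of the split within the naïve group. Marco had 9.99, 11.42, 17.97, 16.66 and 18.31, and Fpr1 6.69, 7.67, 14.36, 13.53 and 15.24. Naïve replicate 3 lay between the stimulated arrays for both genes, neither was called (adjusted p = 0.232 and 0.0683), and both were called higher without naïve replicate 3 (adjusted p = 0.0196 and 0.000143).

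Of 33 proteases, inhibitors and antimicrobial proteins 7 were called higher and 0 lower, and 10 and 0 without naïve replicate 3. The median difference of 0.76 was 0.15 without Pam3CSK4 replicate 1, 1.24 without Pam3CSK4 replicate 3 and 0.27 without naïve replicate 3. Serpinb2, an inhibitor of plasminogen activators, had 5.10, 6.40, 4.00, 12.92 and 8.69 (5.64 ± 1.42, adjusted p = 0.0099, 3.52 without Pam3CSK4 replicate 1). Adamts4, an aggrecan-cleaving protease, had 3.68, 2.83, 5.61, 11.04 and 7.50 (5.23 ± 1.32, adjusted p = 0.00975, 3.46 without Pam3CSK4 replicate 1; normexp 3.06). The acute phase protein Saa3 had 9.77, 10.07, 13.51, 16.91 and 15.66 (5.17 ± 1.27, adjusted p = 0.00102). Saa1 and Saa3 are close relatives, and their probes may share signal. The cathepsins Ctsb, Ctsd, Ctsl and Ctss, the lysosomal proteases of resting macrophages, differed by -0.24 to -0.05 and were not called.

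Of 25 inflammasome genes and other pattern recognition receptors 5 were called higher and 1 lower, and 6 and 4 without naïve replicate 3. The median difference was -0.20, with 0.07 without naïve replicate 2 and a value near 0 without Pam3CSK4 replicate 1. Nlrp3, the sensor of the inflammasome of that name, had 5.68, 5.45, 5.27, 10.81 and 8.51 (4.19 ± 0.70, adjusted p = 0.000111). The sensor of bacterial cell wall fragments Nod2 had 6.89, 7.48, 7.07, 11.03 and 9.14 (2.94 ± 0.60, adjusted p = 0.000313), and its kinase Ripk2 5.36, 5.26, 7.07, 8.96 and 8.58 (2.87 ± 0.63, adjusted p = 0.000444). Nlrp1b was the member called lower (-2.02). Tlr3, Tlr4, Tlr7, Tlr8, Tlr9 and Tlr13 were not called and differed by -1.12 to -0.25, though Tlr4, Tlr7 and Tlr13 were called lower without naïve replicate 3.

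Outside the lists, the genes with the largest higher values included several surface receptors. Olr1, a receptor for oxidised low density lipoprotein, had 2.93, 2.71, 3.29, 10.50 and 8.34 (6.44 ± 0.67, adjusted p = 0.00117; normexp 3.45), and was large on both slides (7.57 and 5.05). The adenosine receptor Adora2a had 4.34, 5.11, 4.92, 10.46 and 9.14 (5.01 ± 0.48, adjusted p = 3.89e-05, normexp 3.29), the fatty acid receptor Gpr84 7.94, 8.82, 9.73, 14.60 and 12.71 (4.83 ± 0.77), and the niacin receptor Niacr1 5.50, 6.04, 9.20, 13.13 and 10.73 (5.02 ± 1.36). Shisa3 and Tpbg were not well above background on any naïve array and were called higher (adjusted p = 0.00325 and 0.00315). On the deposited values they were 43.2-fold and 21.8-fold higher, taking for naïve cells the lowest signal measured above background. These folds are no lower limit, since the normexp differences were smaller (2.24 and 1.72 log2 units). Rasgrp1, Tarm1 and Lad1 were called higher by 4.35 to 5.20 (normexp 1.63 to 3.07). Without Pam3CSK4 replicate 1 the difference of Tpbg was 2.62, against 4.55 with it. Zfp811 was not called (2.19, 2.18, 8.37, 8.83 and 9.85, adjusted p = 0.149, normexp 2.60), with naïve replicate 3 near the stimulated arrays, and was called higher without naïve replicate 3 (adjusted p = 0.0223).

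The genes named outside the lists with the largest lower values had, by the naming rule, to be well above background on at least 2 naïve arrays. Rgs2, a regulator of G protein signalling, had 15.46, 15.50, 13.93, 10.42 and 11.81 (-3.84 ± 0.68, adjusted p = 0.00107). Lpar6, a receptor for lysophosphatidic acid, had 14.69, 14.71, 13.08, 10.02 and 10.75 (-3.77 ± 0.61, adjusted p = 0.000238). Frat1 of the Wnt pathway had 9.20, 8.99, 6.43, 4.37 and 4.14 (-3.95 ± 0.91, adjusted p = 0.00176; normexp -2.13). Naïve replicate 3 was the lowest naïve array in all of them. That it lay above both stimulated arrays was a condition for naming these genes and is no result. Zfyve28, Rasgrp3, Zfp395, the cell death gene Bmf and Hmga2-ps1, a pseudogene whose probe may also read its parent gene, were called lower, with differences of -3.49 to -3.28 (normexp -1.45 for Zfp395).

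Ribosomal protein and other housekeeping genes served as a check. Of 28 such genes 0 were called in the 25-array fit, against 3.09% higher and 3.5% lower of all genes, and 0 without naïve replicate 3. At these shares few calls would arise among 28 genes, so the counts of 0 tell little. The median difference of the list was 0.01, but 0.17 with the scanner's processed signal and 0.48 under median scaling. Gapdh had 17.51, 17.54, 17.81, 17.83 and 18.03 (0.31 ± 0.22). Rps24 and Sdha, the other members named, differed by -0.20 and -0.16, and by 0.30 and 0.38 under median scaling and 0.02 and 0.13 with the scanner's processed signal, so that no direction is given for them.

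To see where the response to the TLR2 ligand differed from that to other ligands, acute Pam3CSK4 was compared with acute CpG and acute Poly(I:C), each on 3 arrays after 4 h. CpG DNA is the ligand of TLR9, which uses MyD88 like TLR2, and Poly(I:C), a double-stranded RNA, that of TLR3. The ligands are different substances, and no matching of their doses is possible. Against CpG 0 of 25396 probes were called in the 5-array fit (882 at an unadjusted p under 0.05), and 11 with the spread of 25 arrays, 2 higher and 9 lower. As genes these were 0.0116% of 17279 higher and 0.0347% lower. Among the list genes these were Il12b, Ccl12 and Oasl1, with Pam3CSK4 lower by 4.27 to 5.69 log2 units. Il12b had 15.14, 14.63 and 14.88 after CpG, and 11.23 and 7.16 after Pam3CSK4 (-5.69 ± 1.15, adjusted p = 0.036 in the 25-array fit). A p above the threshold does not show that the ligands act alike. For Tnf the difference was -1.07 ± 0.45 and for Il6 -3.73 ± 0.96. The list medians of Pam3CSK4 minus CpG ran from -1.63 in the interferon list to 0.15 in the housekeeping list. They were -1.20 for cytokines and -0.94 for chemokines, against 0.08 for all genes, and were not tested.

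Against Poly(I:C) 78 of 26657 probes were called higher (0.293%) and 567 lower (2.13%) in the 5-array fit of these groups, which were 0.327% of 17746 genes higher and 1.89% lower. In the 25-array fit the shares were 3.41% and 4.45%. In the interferon list 30 of 42 genes were called lower after Pam3CSK4 and 0 higher in the first fit, and 41 of 42 lower in the other. The median difference of the list was -3.18. Ifnb1 had 12.22, 11.68 and 10.99 after Poly(I:C) against 6.67 and 4.45 after Pam3CSK4 (-6.07 ± 0.74, adjusted p = 0.029 in the 5-array fit). Cxcl10 had 18.15, 18.17 and 18.12 against 13.94 and 12.47 (-4.94 ± 0.45, adjusted p = 0.0171 in the 5-array fit). The groups did not overlap for either gene. With the replicate number as a block the 5-array fit called 0 probes (smallest adjusted p = 0.0589), while in the 25-array fit the adjusted p was 0.00033 for Ifnb1 and 0.000756 for Cxcl10.

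In the lists of inflammatory genes the 25-array fit gave calls in both directions against Poly(I:C). After Pam3CSK4 1 of 21 cytokine genes was called higher and 2 lower, and 3 of 18 chemokines higher and 5 lower. Of 29 genes of the NF-κB list 2 were called higher and 1 lower, and of 34 immediate early and MAP kinase genes 11 higher and 4 lower. Of all genes 3.41% were called higher and 4.45% lower. The counts of the cytokine and NF-κB lists are near these shares and are not read as a result about these lists. Il1b had 7.86, 8.42 and 9.15 after Poly(I:C) and was 5.0 ± 1.41 higher after Pam3CSK4 (adjusted p = 0.00345). Cxcl2 (4.69 ± 1.00, adjusted p = 0.00953), Ptgs2 (3.32 ± 0.94, adjusted p = 0.00459) and Maff (1.91 ± 0.45, adjusted p = 0.00299) were called higher too, none of them in the 5-array fit. Il6 (-1.12 ± 0.80) and Tnf (1.79 ± 0.68) were not called in either. The 645 calls of the 5-array fit depended on single arrays. They were 0 without Poly(I:C) replicate 1 or 2, 1030 without Poly(I:C) replicate 3, and 121 and 6 without Pam3CSK4 replicates 1 and 3.

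**Figure D5:**
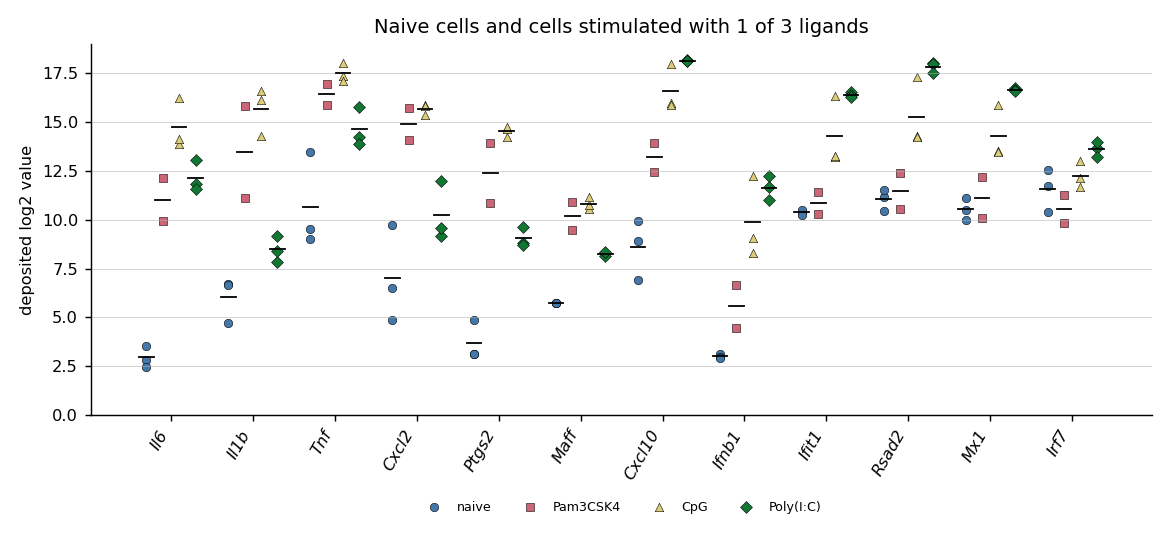
Deposited log2 values (y axis) of 12 genes (x axis) in naïve cells and in cells after 4 h of Pam3CSK4, CpG or Poly(I:C), 1 point per array with the group mean as a line. After Pam3CSK4 Ifit1, Rsad2, Mx1 and Irf7 (chosen after their values were seen) lay near the naïve values, with differences of -5.56, -6.38, -5.51 and -3.09 against Poly(I:C).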

How the data were processed

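RNA of each culture was labelled with Cy3 and hybridised to Agilent mouse arrays with 8 arrays per slide. For every array the deposited file holds the scanner intensities of spots and local background, not normalized by the authors. For 25 arrays a deposited table gives log2 values, which the authors derived with limma by the RMA correction of the background followed by quantile normalization. These were used as they are. The intensity files gave the background mark of each spot, the slide and the gene name (of naïve replicate 1). Columns of the table that belong to no sample numbered 0. No depth exists for arrays, and signal near background limits the low values. Quantile normalization forces equal distributions on all arrays, so a shift common to most genes cannot be seen.

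Groups and replicate numbers came from the sample labels. Probes that cleared the background mark on 2 or more arrays of one group were fitted with limma 3.58.1 in R 4.3.3 (lmFit, eBayes, Benjamini-Hochberg adjustment over all probes tested), and files were read with the R package data.table (version 1.17.8). A call needed an adjusted p under 0.05 and 1.5-fold. The main model used the 5 arrays of the comparison, and the same contrast was taken from a joint model of 25 arrays in 9 groups. The probe of a gene was the one with the highest mean over the 5 arrays. The fits were run on simulated arrays with independent noise and no slide effect. That run therefore does not bear on the slide differences or on naïve replicate 3.

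Named genes were, from each of 15 lists, the 3 genes with the largest difference among those whose groups did not overlap, whose difference had 1 sign within both slides and that were well above background on both Pam3CSK4 arrays or at least 2 naïve arrays. The 10 highest and 8 lowest such genes outside the lists were added (symbols only, no clone names), as were Tlr1, Tlr2, Tlr6, Myd88, Tnf, Il6, Il1b, Il10, Il12b, Ifnb1, Cxcl10, Nos2 and Ptgs2 in any case. The comparison and the lists were chosen with earlier results of these data known. Of 455 list genes 453 are on the array and 423 were tested. Results for some members are not reported here. Alternatives were other values, backgrounds, scalings, filters, sets of arrays, blocks and single arrays left out. Positions on the array are in mm9. Promoters were matched to genes by symbol in RefSeq.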

Additional observations from a re-analysis of the deposited data

Results flagged for a closer look

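The array of Pam3CSK4 acute replicate 2, which has no deposited normalized values, had an Il6 signal above that of the naïve arrays. On values made again from the scanner intensities, Il6 was 9.36 there, against 4.22, 3.82 and 5.05 on the naïve arrays and 12.2 and 10.1 on the other Pam3CSK4 arrays. Of the 584 genes called higher, 217 lay above all naïve arrays on this array, and of the 662 called lower, 548 lay below all of them. Maff (5.48) and Adm (4.16) lay below all naïve arrays there. The shares over all genes were not counted, so these counts are not read as agreement with the other arrays. With this array added, the median difference over all probes was -0.42, against 0.006 in the 5-array fit. On that array 99.9% of the spots were well above background and 22.6% were non-uniform, and its values correlated with those of the 5 arrays with r between 0.629 and 0.687. The part of its quality in these counts was not tested. Groups of 3 arrays or fewer were not searched for single arrays far from the others.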

How the results depend on the processing

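In the 5-array fit against naïve cells 0 probes were called with values made again, normexp, the processed signal, no filter or a stricter one, Pam3CSK4 replicate 2 added, a trend, array weights or no minimum fold. Median scaling gave 274 (251 higher, 23 lower). It moved the median of all probes to 0.31 with 1 SE for all probes (0.776), so its calls rest on size alone. Calls numbered 1731 in the fit of 25 arrays and 1532 in that of the 22 arrays sharing slides. Leaving out 1 array gave 0 to 584, with 584 only without naïve replicate 3, and 0 there on the probes tested with it (smallest adjusted p 0.0502). Fits added after seeing the data gave 2644 (24 arrays without naïve replicate 3), 2614 (22 arrays with the replicate block) and 0 (replicates 1 and 3 alone).

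The labels share only a replicate number between groups, which is also the slide. Deviations from the group means of same-numbered arrays correlated with 0.497 and 0.530, from 2 pairs. The deviations of the 2 Pam3CSK4 arrays mirror each other (r = -1), so these 2 values are not independent. With the replicate block the 5-array fit called 0 (smallest adjusted p 0.439), and as a random block in 25 arrays 2780. Against Poly(I:C) the block gave 0 (smallest adjusted p 0.0589), the 25-array fit 2147, and leaving out 1 array 0 to 1030. Against CpG the block and every array left out gave 0 and the 25-array fit 11.

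With Pam3CSK4 replicate 2 added, Egln3 (-0.048) and Tlr6 (-0.14) changed sign. Rps24 did so with the processed signal (0.020) and median scaling (0.30), and Sdha likewise (0.13 and 0.38). Of the 70 named genes 56 were called in the 25-array fit, 60 there without naïve replicate 3, 61 with a random block and 59 with the block in 22 arrays. The fit of 4 arrays without naïve replicate 3 called 35, or 0 on the probes of the 5-array fit, and the 5-array fit 0 with the block. The number of arrays and signals near background in naïve cells limit all of these values.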

Other observations

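The array holds 16194 probes for noncoding regions named by position, 5313 of which were tested, with 109 called higher (2.05%) and 69 lower (1.3%) in the 25-array fit, smaller shares than those of all probes (3.25% and 2.97%). Among them were neighbouring probes on mm9 chromosome 16, chosen after their values were seen. One on the plus strand at chr16:84708738-84708797 had 2.51, 2.18, 3.39, 10.82 and 8.95 (difference 7.19, adjusted p = 1.5e-05). Of 11 tested probes in this stretch 10 were called higher, on both strands.

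Platelet factor Pf4 was lower on both arrays of replicate 3, with 16.65, 17.05, 13.47, 16.93 and 14.31. The list of 5 megakaryocyte and platelet markers that holds it had medians of 4.81, 4.67, 3.18, 5.08 and 4.88. Its member Itga2b went the other way, with 3.54, 4.23, 5.32, 3.28 and 4.88. Siglech, which is in the dendritic cell list, was at 16.06 to 16.31 on all 5 arrays. Of the other dendritic cell markers Ccr7 had 8.01, 8.38, 3.07, 9.27 and 3.46 and Zbtb46 4.31, 4.73, 3.11, 6.02 and 4.06, while Xcr1, Clec9a and Cd209a stayed at 5.06 or below.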
